A study of Macaca fascicularis with 23 samples.

Results

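FADS2, SCD and ELOVL5 encode 3 enzymes that reshape fatty acids by adding double bonds or carbon units, and their RNA was measured in the livers of 23 cynomolgus monkeys (Macaca fascicularis). Every probe set that the array annotation assigned to 1 of these genes was taken, which gave 3 of the 8229 genes that a probe set names alone and 4 of the 12625 probe sets on the array: 32190_at for FADS2, 37513_at for SCD, and 33821_at and 35117_at for ELOVL5. The genes were selected on their measured levels, log2(intensity + 16), over the 7 dose and day groups of these same arrays. Their levels and differences are therefore given as descriptions, with the error of the fit and with no test.

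The animals received either vehicle alone or the fibrate ciprofibrate, an agonist of the nuclear receptor PPAR-alpha, and dosing lasted 4 or 15 days. At 4 days there were 2 vehicle animals and 2 animals on 400 mg/kg/day. The 15-day study had 3 animals on vehicle, and doses of 3, 30, 150 and 400 mg/kg/day were given to 4 animals apiece. Every array held RNA from the right lateral lobe of a different animal, and neither sex nor age is given in the sources used here. The probes were designed for human transcripts, so differences in monkey sequence can alter a probe set's signal, and values were compared only within a probe set.

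Delta-6 desaturase, the product of FADS2, puts a double bond into the essential fatty acids linoleic and alpha-linolenic acid and so opens the route to long polyunsaturated fatty acids. ELOVL5 lengthens the products of that step, and stearoyl-CoA desaturase, the product of SCD, makes monounsaturated fatty acids such as oleic acid from saturated ones. The liver is a main site of these reactions, and both PPAR-alpha and the sterol-regulated factor SREBP-1 (gene SREBF1) are known regulators of desaturase genes.

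The mean correlation of an array with its own group was 0.846 to 0.921 over log2 values, and no array held the same values as another. The lowest was animal 4 on 30 mg/kg/day, at 0.846 against 0.874 to 0.878 for the other 3 of its group, and it was also lowest against the other groups (0.842). Animal 3 on that dose was slightly closer to other groups (0.877) than to its own (0.876). These are the 2 livers that were brightest for FADS2 and SCD at 30 mg/kg/day, and the differences of FADS2, SCD and ELOVL5 at that dose are given with and without animal 4. All 9 hepatocyte markers were measured, and none of the markers of the 7 cell types examined was listed at 0 on average. The ratio of 5' to 3' signal for ACTB, a sign of RNA or cRNA length, was 0.748 to 1.21 at 4 days and 0.503 to 0.979 at 15 days. For GAPDH the ratio was 0.947 to 1.17 at 4 days and 0.659 to 1.55 at 15 days. The median was lower at 15 days for ACTB (0.614 against 1.00) but higher for GAPDH (1.18 against 0.984). The days therefore differed in the ACTB ratio in a direction that GAPDH did not share. The part of these ratios in comparisons between days was not tested.

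FADS2 was the member with the widest range, at intensities from 11.4 to 1666.2 across the 23 livers. At 15 days the 3 vehicle animals had 52.4, 35.1 and 23.5, the 4 animals on 3 mg/kg/day had 14.0, 13.7, 25.8 and 11.9, and those on 30 mg/kg/day had 52.3, 11.4, 404.3 and 345.2. The vehicle and 3 mg/kg/day livers were all dim and overlapped, while the 30 mg/kg/day group split into a pair of livers within or below the vehicle range and a pair well above it. The animals on 150 mg/kg/day had 562.4, 580.5, 555.7 and 520.7, and those on 400 mg/kg/day had 1112.2, 1052.4, 1074.6 and 647.0. Every animal at these higher doses lay above every vehicle animal, and the 400 mg/kg/day group lay wholly above the 150 mg/kg/day group. At 4 days the vehicle animals had 28.9 and 210.9 and the 400 mg/kg/day animals had 1666.2 and 1155.8, so these groups also stood apart.

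Intensities were compared as log2(intensity + 16), and a fold change is given on that scale, which understates the change of dim probe sets. FADS2 differed from 15-day vehicle by -0.69 ± 0.64 (log2 ± SE) at 3 mg/kg/day, 1.33 ± 0.64 at 30, 3.46 ± 0.64 at 150 and 4.22 ± 0.64 at 400, the last an 18.7-fold higher level. The 4-day difference at 400 mg/kg/day was 3.80 ± 0.83, or 13.9-fold, with 2 animals in each group. Without animal 4 of the 30 mg/kg/day group, the FADS2 difference at that dose was 0.84 ± 0.63. The FADS2 mean, taken on the log2 scale, was 35.7 in 15-day vehicle and 15.9 at 3 mg/kg/day. Both lay under 39.7, the mean intensity below which probe sets were not tested, and were not shown to lie above background. The size of a difference from vehicle therefore depends on the added constant. With 1 in place of 16 the 15-day difference at 400 mg/kg/day was 4.72, and with 32 it was 3.85. The 4-day difference depended on the vehicle animal used, since it was 2.63 without the dimmer one and 4.97 without the brighter one.

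SCD was higher than vehicle at the top dose at both times, and its rank among the doses below that was less clear than that of FADS2. At 15 days the vehicle animals had 191.9, 40 and 125.0, those on 3 mg/kg/day had 55.7, 43, 66.6 and 38.4, and those on 30 mg/kg/day had 39.9, 107.8, 296.8 and 274.8. These groups overlapped, and the 2 brightest livers at 30 mg/kg/day were the same 2 that were brightest for FADS2. The animals on 150 mg/kg/day had 918.6, 178.0, 173.0 and 210.6, so 1 liver was far above the other 3, which lay in or near the vehicle range. The animals on 400 mg/kg/day had 591.5, 1557.4, 733.4 and 1480.6, all above vehicle. At 4 days the vehicle animals had 35.8 and 125.7, against 724.9 and 539.4 on 400 mg/kg/day.

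The SCD differences from 15-day vehicle were -0.84 ± 0.59 at 3 mg/kg/day, 0.43 ± 0.59 at 30, 1.33 ± 0.59 at 150 and 3.11 ± 0.59 at 400, which is 8.63-fold. Without animal 4 of its group the 30 mg/kg/day difference of SCD was 0.13 ± 0.62, and without its brightest liver the 150 mg/kg/day difference was 0.78. After 4 days of 400 mg/kg/day the difference was 2.90 ± 0.77, or 7.49-fold, and it was 2.18 or 3.63 depending on which vehicle animal was left out. The groups at 150 and 400 mg/kg/day differed by 1.78 ± 0.54 for SCD, but the bright 150 mg/kg/day liver lay inside the 400 mg/kg/day range.

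ELOVL5, read by probe set 33821_at, had the smallest differences of the 3 genes and the least scatter between animals of a group, with a pooled within-group SD of 0.34 (log2) against 0.88 for SCD and 0.96 for FADS2. At 15 days the vehicle animals had 169.0, 227.2 and 130.9, those on 3 mg/kg/day had 91.8, 127.1, 149.3 and 86.5, and those on 30 mg/kg/day had 194.9, 175.2, 297.4 and 212.7. The animals on 150 mg/kg/day had 306.9, 186.7, 175.4 and 249.4. All 3 of these dose groups overlapped vehicle. The animals on 400 mg/kg/day had 587.9, 680.2, 416.6 and 602.2, and each exceeded every other 15-day animal. At 4 days vehicle gave 139.3 and 271.6, and 400 mg/kg/day gave 354.6 and 366.5, which stood above vehicle but below the 15-day animals on the same dose.

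The ELOVL5 differences from 15-day vehicle were -0.56 ± 0.26 at 3 mg/kg/day, 0.31 ± 0.26 at 30 (0.31 ± 0.29 without animal 4), 0.36 ± 0.26 at 150 and 1.63 ± 0.26 at 400, which is 3.09-fold. After 4 days the difference was 0.83 ± 0.34, or 1.78-fold, and it was 0.39 or 1.28 depending on which of the vehicle animals was left out. From 150 to 400 mg/kg/day ELOVL5 differed by 1.27 ± 0.24, which was most of its distance from vehicle. FADS2 had most of its distance below 150 mg/kg/day and differed by only 0.76 ± 0.59 between the same doses.

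**Figure D1:**
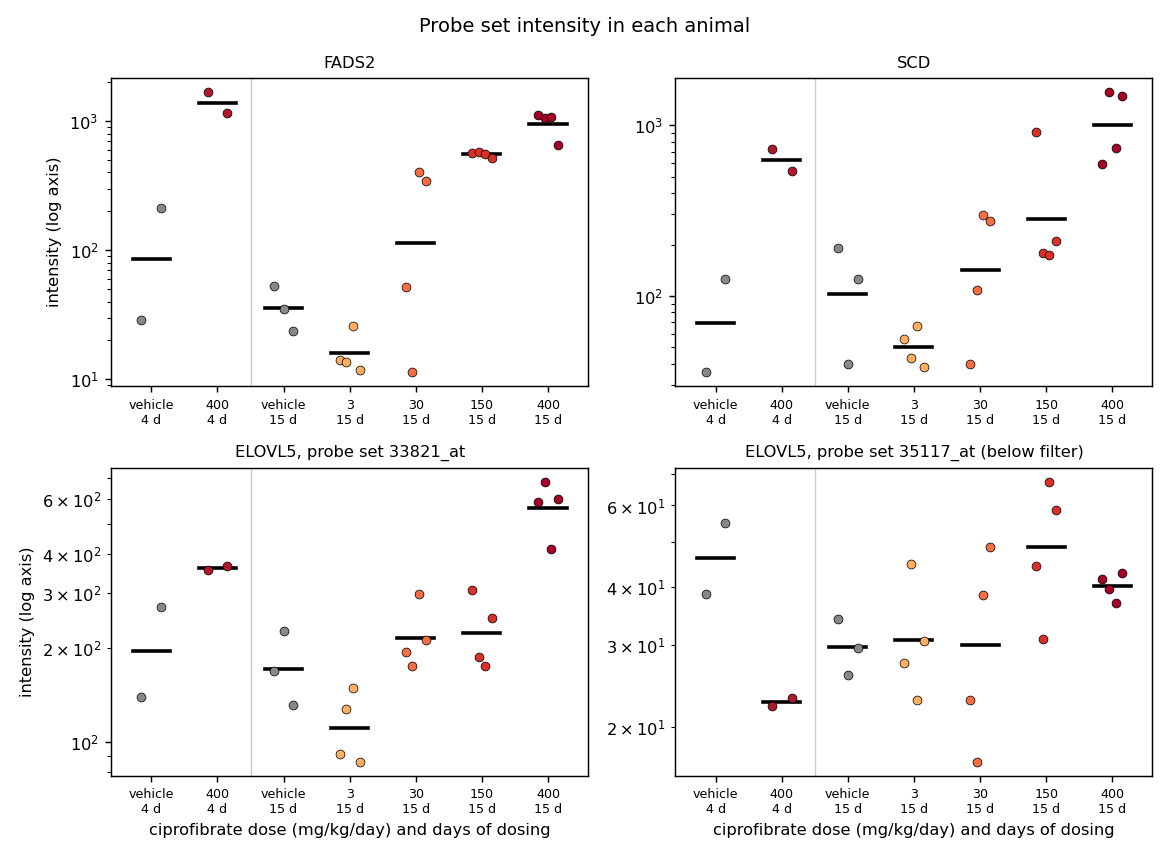
Probe set intensity (log axis) in each of the 23 animals, by ciprofibrate dose in mg/kg/day and days of dosing; points are animals and bars are group means taken on the log2(intensity + 16) scale. FADS2 stands above vehicle from 150 mg/kg/day, SCD and the ELOVL5 probe set 33821_at only at 400 mg/kg/day, and the 30 mg/kg/day group spans 11.4 to 404.3 for FADS2.

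The second ELOVL5 probe set, 35117_at, did not show this pattern. It was dim, at 16.8 to 67.4 over all animals, and its mean lay under the limit of 39.7 below which probe sets were not tested, so it has no SE. At 15 days vehicle gave 34.2, 25.8 and 29.5 and 400 mg/kg/day gave 41.6, 39.6, 36.9 and 42.8, a difference of 0.30. At 4 days vehicle gave 38.7 and 54.9 and 400 mg/kg/day gave 22.1 and 23.0, a difference of -0.69, opposite in sign to that of 33821_at. At 3 mg/kg/day the difference of 35117_at was 0.033. Detection calls were not used here, and intensities this low were not shown to lie above background.

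Counting groups that stood wholly above their vehicle, FADS2, SCD and ELOVL5 (33821_at) all did so at 400 mg/kg/day at 15 days, as did 6.72% of all 7535 tested probe sets. All 3 did so at 4 days, where groups of 2 gave a background of 18.4%. FADS2 alone of the 3 did so at 150 mg/kg/day (background 5.16%), and none did at 3 or 30 mg/kg/day (4.05% and 4.03%). The dim ELOVL5 probe set 35117_at, which was not tested, stood wholly above vehicle at 400 mg/kg/day at 15 days but wholly below it at 4 days. Since these contrasts chose the genes, the shares are given for scale only.

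**Figure D2:**
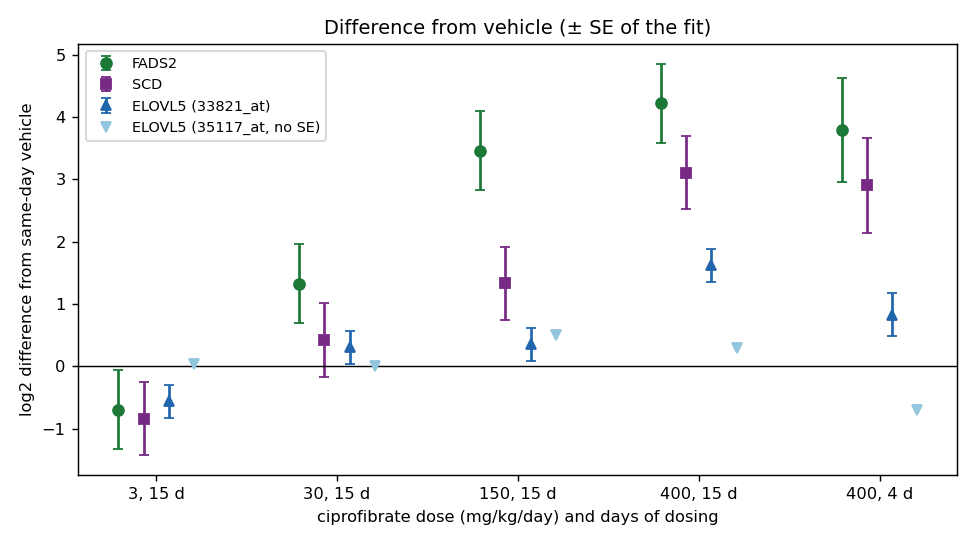
Difference from the vehicle group of the same day on the log2(intensity + 16) scale, by dose in mg/kg/day and days, with the SE of the fit over 23 arrays as bars; the dim ELOVL5 probe set 35117_at has no SE. The 3 leading probe sets are below 0 at 3 mg/kg/day and highest at 400 mg/kg/day, from -0.69 to 4.22 for FADS2, while 35117_at stays between -0.69 and 0.50.

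All 3 leading probe sets had their lowest mean in the animals on 3 mg/kg/day, below vehicle. For FADS2 the 3 mg/kg/day and 15-day vehicle means were both too dim to be shown above background. The 3 mg/kg/day and vehicle ranges overlapped for each gene, and the gap to the next group exceeded the larger group SD for FADS2 (0.69 against 0.40) and ELOVL5 (0.56 against 0.36) but not for SCD (0.38 against 1.03). From there, FADS2 ran through the 15-day vehicle, 4-day vehicle, 30, 150 and 400 mg/kg/day groups to the 4-day 400 mg/kg/day group. Its neighbours from 15-day vehicle up to 30 mg/kg/day did not differ beyond their spread, whereas the steps above 30 mg/kg/day did and the ranges did not overlap. For SCD, the gap between 150 mg/kg/day and 400 mg/kg/day at 4 days, 1.11 against an SD of 1.11, was the only step as large as the spread, and even there the ranges overlapped. For ELOVL5, the groups from 15-day vehicle to 150 mg/kg/day lay within their spread of each other, and the 400 mg/kg/day groups lay above them, with 4 days below 15 days by 0.62.

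Set against 3 mg/kg/day, which had 4 animals in place of the 3 vehicle animals, the 400 mg/kg/day livers were higher by 4.92 ± 0.59 for FADS2, 3.95 ± 0.54 for SCD and 2.19 ± 0.24 for ELOVL5. In that contrast, too, the groups did not overlap for any of the 3, as for 5.75% of tested probe sets. It shares the 400 mg/kg/day animals with the vehicle comparison and is no separate evidence.

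The effect of 400 mg/kg/day could be set side by side at both times. The 15-day difference exceeded the 4-day one by 0.43 ± 1.05 for FADS2, 0.20 ± 0.97 for SCD and 0.79 ± 0.43 for ELOVL5. For FADS2 and SCD these gaps were well within their errors. With 2 animals a group at 4 days, a change with time as large as those errors, or somewhat larger, could not be told from none. The vehicle groups differed between days by -0.97 ± 0.76 for FADS2, 0.46 ± 0.70 for SCD and -0.17 ± 0.31 for ELOVL5. Without the brighter 4-day vehicle animal, the time differences turned to -0.74 for FADS2 and -0.52 for SCD, and the vehicle differences turned to 0.20 for FADS2 and 0.27 for ELOVL5. The vehicle difference of SCD turned to -0.26 without the dimmer one. For ELOVL5 the time difference stayed positive without any 1 animal, at 0.35 to 1.24.

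Animals given the same dose differed from each other, and these deviations from the group mean played no part in choosing the genes. The widest spread was that of FADS2 at 30 mg/kg/day, where the SD was 1.91 (log2). In a group of 2 animals the deviations mirror each other, so a count of signs does not treat independent animals. Across all 23 animals, deviations of FADS2 and SCD had the same sign in 16 animals, with a Pearson r of 0.51 (two-sided permutation within groups, p = 0.125, adjusted over 3 pairs p = 0.125) and a Spearman rho of 0.50 (permutation p = 0.076, adjusted p = 0.0913). Without the 2 animals farthest from the median, r was 0.51, but without the 30 mg/kg/day group, a check chosen after its spread was seen, it was 0.32, and 0.041 when the 2 farthest of the remaining animals were also left out. Without animal 4 of that group alone it was 0.45. FADS2 and ELOVL5 gave r = 0.51 (permutation p = 0.0382, adjusted p = 0.0979) and rho = 0.47 (permutation p = 0.0913, adjusted p = 0.0913), falling to r = 0.41 without the 2 farthest animals. SCD and ELOVL5 gave r = 0.49 (permutation p = 0.0653, adjusted p = 0.0979) and rho = 0.49 (permutation p = 0.0654, adjusted p = 0.0913), and r = 0.41 without the 2 farthest. None of the 3 pairs passed the adjusted threshold. Over the 19 animals at 15 days the 3 correlations were 0.44, 0.40 and 0.42, with adjusted permutation p of 0.26, 0.191 and 0.191, and without the 2 farthest of these animals they were 0.43, 0.15 and 0.28.

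**Figure D3:**
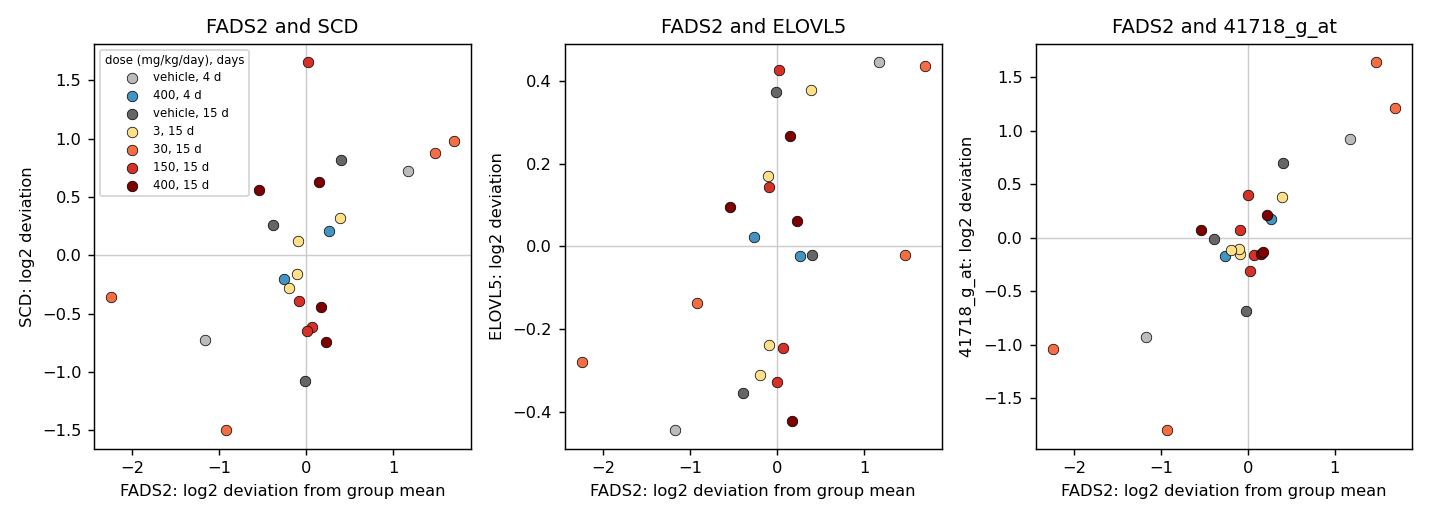
Deviation of each of the 23 animals from its own group's mean on the log2(intensity + 16) scale, for FADS2 on the horizontal axis and SCD, ELOVL5 (33821_at) or probe set 41718_g_at on the vertical axis; colours are the 7 groups. The 4 animals on 30 mg/kg/day spread farthest for FADS2, and r is 0.51 for SCD, 0.51 for ELOVL5 and 0.85 for 41718_g_at.

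FADS1, the delta-5 desaturase that acts after FADS2 and ELOVL5 in the polyunsaturated route, is the nearest protein-coding gene to FADS2 on one side in the RefSeq annotation of this species (assembly T2T-MFA8v1.1), with FADS3 on the other. The array's 6 probe sets for FADS1 are annotated with FADS1 and MIR1908 together, so no value here is assigned to either gene. They were singled out after their values were seen, and probe sets of 1 transcript are not independent of each other.

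Probe set 41718_g_at had 367.8, 130.6 and 218.5 in the 15-day vehicle animals, 299.3, 308.7, 439.1 and 306.6 at 3 mg/kg/day, and 152.5, 268.7, 1343.6 and 1812.9 at 30 mg/kg/day. It had 1081.3, 1204.1, 1779.7 and 1416.1 at 150 mg/kg/day and 3261.6, 2531.0, 2552.7 and 2951.0 at 400 mg/kg/day. As with FADS2, every liver at the 2 highest doses lay above vehicle, as in 5.16% and 6.72% of all tested probe sets at 150 and 400 mg/kg/day. The same 2 of the 4 livers at 30 mg/kg/day were the bright ones. At 4 days vehicle gave 232.6 and 880.1, with the same animal brighter as for FADS2, and 400 mg/kg/day gave 3403.5 and 2680.7.

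As the 6 were chosen after their values were seen, their limma results describe them and are no separate support. By limma over all 7535 probe sets, 5 of the 6 rose at 400 mg/kg/day at 15 days, where 1.26% of all probe sets rose and 0.876% fell. The 15-day vehicle means of 39372_at, 39373_at and 41719_i_at, taken on the log2 scale, were 14.8, 23.2 and 24.4. These lay under the limit of 39.7 and were not shown to lie above background, so the size of those differences depends on the added constant. The log2 differences were 3.58 ± 0.56 for 41718_g_at (limma adjusted p = 0.000675), 3.49 ± 0.58 for 39373_at (adjusted p = 0.00123), 2.39 ± 0.49 for 41719_i_at (0.00675), 2.25 ± 0.49 for 39372_at (0.0129) and 1.72 ± 0.40 for 41720_r_at (0.0219). Probe set 41717_at had 2.20 ± 0.63 and did not pass (limma adjusted p = 0.077), although its groups did not overlap. Of these, 41718_g_at and 39373_at passed without any 1 of the 7 animals compared. The call of 39372_at was lost without 1 vehicle animal (limma adjusted p = 0.0794). That of 41719_i_at was lost without 1 vehicle animal and with a constant of 1 (limma adjusted p up to 0.0639). That of 41720_r_at was lost without 5 of the 7 in turn (up to 0.104).

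At 150 mg/kg/day 41718_g_at was the only 1 of the 6 that rose, by 2.53 ± 0.56 (limma adjusted p = 0.0334), where 0.531% of all probe sets rose and 0.146% fell. That call was lost without 6 of the 7 animals in turn, at adjusted p of up to 0.176. It was also lost with no filter, with no intensity trend and with the replicate number as a block. None of the 6 was called at 3 or 30 mg/kg/day, where 0% of all probe sets rose and 0% and 0.0133% fell, or at 400 mg/kg/day at 4 days, where 0.252% rose and 0.0398% fell. At 4 days the 6 differences were nonetheless all positive, from 1.40 for 41717_at to 2.89 for 41719_i_at (limma adjusted p = 0.0517). Against 3 mg/kg/day, 5 of the 6 rose at 400 mg/kg/day, with 1.92% of all probe sets, while 2.26% fell. Of these calls, that of 39373_at was lost without 6 of the 8 animals in turn and with a constant of 1 (limma adjusted p up to 0.0872), that of 41717_at without 2 and that of 39372_at without 1 (up to 0.0583 and 0.0542). The exception was 41720_r_at, at 1.22 ± 0.37 (limma adjusted p = 0.0664).

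**Figure D4:**
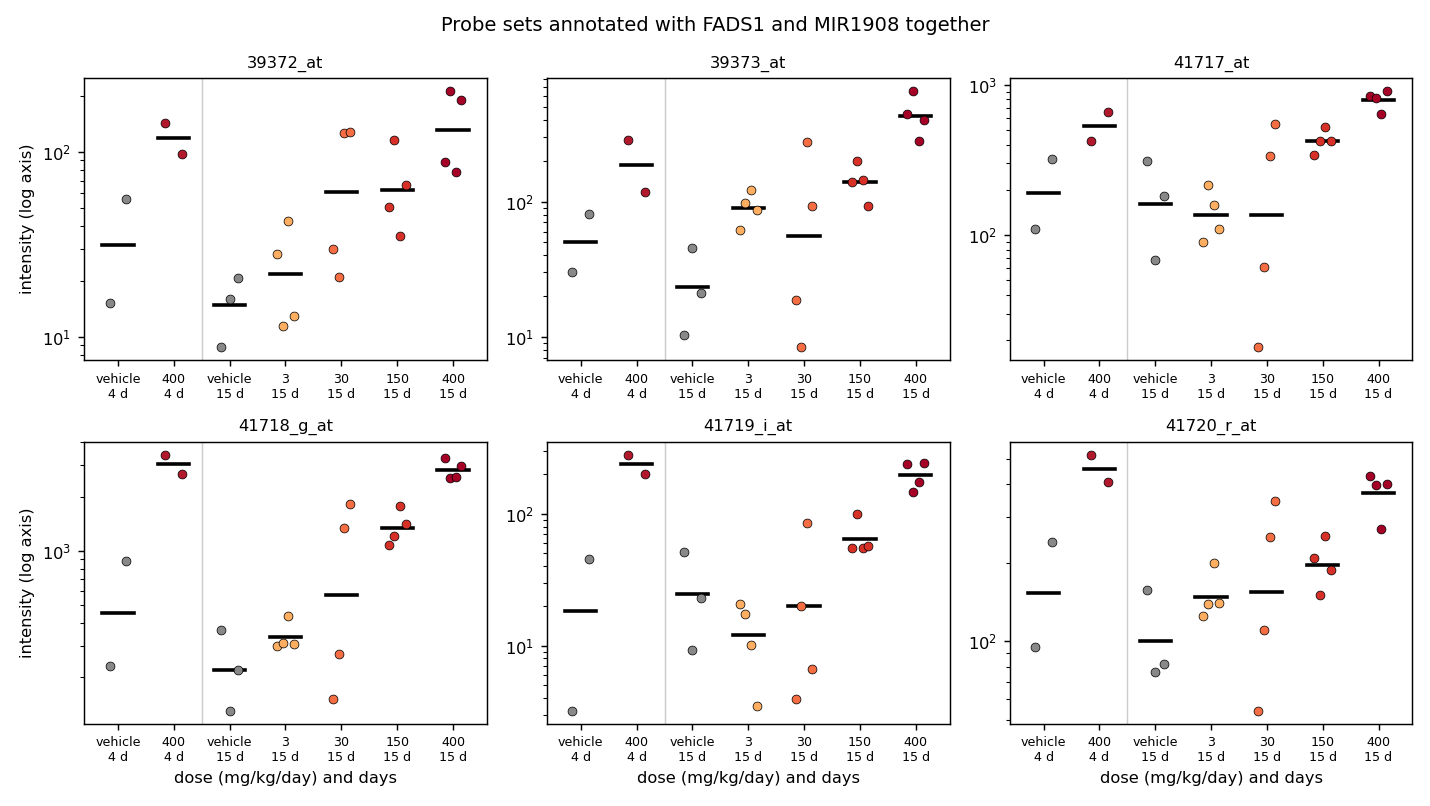
Intensity (log axis) in each animal of the 6 probe sets annotated with FADS1 and MIR1908 together, by dose in mg/kg/day and days; points are animals and bars are group means taken on the log2(intensity + 16) scale. The 15-day animals on 400 mg/kg/day lie above vehicle in all 6, which were chosen after their values were seen, and in 6.72% of all tested probe sets. Probe set 41718_g_at runs from 130.6 in a vehicle animal to 3403.5 at 4 days on 400 mg/kg/day.

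Within groups, deviations of 41718_g_at followed those of FADS2 with r = 0.85 (two-sided permutation p = 0.0857, adjusted over 3 pairs p = 0.129) and rho = 0.74 (permutation p = 0.0199, adjusted p = 0.0598). Against SCD it gave r = 0.64 (permutation p = 0.0346, adjusted p = 0.104) and rho = 0.51 (permutation p = 0.0773, adjusted p = 0.116), and against ELOVL5 r = 0.34 (permutation p = 0.269, adjusted p = 0.269) and rho = 0.31 (permutation p = 0.311, adjusted p = 0.311). Without the 2 farthest animals the 3 values of r were 0.85, 0.70 and 0.15. Over the 15-day animals they were 0.82, 0.59 and 0.20. The FADS2 relation without the 30 mg/kg/day group had r = 0.76, and 0.40 when the 2 farthest of the remaining animals were also left out. None passed after adjustment, and FADS2 with 41718_g_at had the largest correlation of the 6 pairs computed.

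The other enzymes and electron carriers of desaturation and elongation were measured for 9 of 23 listed genes. Cytochrome b5 (CYB5A), which passes electrons to the desaturases, was the member of that list that rose. CYB5A had a mean intensity of 1340 ± 446 (SD, n = 3) in 15-day vehicle, 1911 ± 398 (n = 4) at 3 mg/kg/day, 1824 ± 322 (n = 4) at 30, 2944 ± 796 (n = 4) at 150 and 3043 ± 673 (n = 4) at 400. It rose by 1.13 ± 0.24 at 150 mg/kg/day (limma adjusted p = 0.0242) and 1.20 ± 0.24 at 400 (limma adjusted p = 0.00577), where 0.531% and 1.26% of all tested probe sets rose. The call at 400 mg/kg/day was lost without 1 vehicle animal (limma adjusted p = 0.0528), and that at 150 without any of 4 of the 7 animals (up to 0.187). The call at 150 was also lost with the replicate number as a block, with no intensity trend and with only the groups compared. At 4 days CYB5A was 4957.1 and 4996.2 on 400 mg/kg/day against 1993 and 2360.1 in vehicle, a difference of 1.19 ± 0.31 that did not pass (limma adjusted p = 0.139).

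The remaining 8 genes of that list passed in no comparison with vehicle. CYB5R1, a cytochrome b5 reductase, had the largest difference of them at 400 mg/kg/day, 1.88 ± 0.52 at 15 days (limma adjusted p = 0.0646) and 1.61 ± 0.69 at 4 days (0.568). The main hepatic reductase of cytochrome b5, CYB5R3, had 0.32 ± 0.16 at 15 days, and the outer mitochondrial form CYB5B had -0.04 ± 0.27. FADS3, the third gene of the desaturase cluster, had 0.42 ± 0.32 at 15 days and -0.64 ± 0.42 at 4 days. ELOVL2, which elongates the chains that ELOVL5 leaves, had 0.04 ± 0.28 at 15 days and -0.60 ± 0.36 at 4 days. TECR and HACD2, enzymes of the later steps of the elongation cycle, had 0.53 ± 0.32 and -0.13 ± 0.20, and the ceramide desaturase DEGS1 had -0.15 ± 0.32. The median of the 9 genes at 400 mg/kg/day was 0.32, with 6 above 0, beside a median of -0.03 over all tested genes.

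Genes that supply carbon and reducing power for fatty acid synthesis were measured for 8 of 15, with a median of 0.50 at 400 mg/kg/day at 15 days. Malic enzyme (ME1), which makes NADPH, was the one that rose, by 1.25 ± 0.28 (limma adjusted p = 0.0154), from 230 ± 51.7 (SD, n = 3) in vehicle to 571 ± 133 (n = 4). Its call was lost without 1 vehicle animal or 1 treated animal (limma adjusted p up to 0.0953). Against 3 mg/kg/day it rose by 1.68 ± 0.26 (limma adjusted p = 0.000317). None of the 8 fell, and none was called at the other doses or at 4 days.

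Of 26 listed transcription factors and their partners, 18 were measured, with a median of -0.09 at 400 mg/kg/day. SREBF1 had 0.67 ± 0.18 at 400 mg/kg/day at 15 days (limma adjusted p = 0.0599) and 0.90 ± 0.24 at 4 days (0.151), neither past the threshold. It rose at 400 against 3 mg/kg/day, by 0.91 ± 0.17 (limma adjusted p = 0.00219), where 1.92% of all probe sets rose. Intensities of SREBF1 were 463.6 to 538.6 in 15-day vehicle, 355.2 to 516.2 at 3 mg/kg/day, 548.4 to 688.9 at 30, 636.4 to 778.0 at 150 and 678.1 to 1077.6 at 400. The groups from 30 mg/kg/day up thus lay above vehicle. With each dose taken alone, 4.03%, 5.16% and 6.72% of all tested probe sets did so at 30, 150 and 400 mg/kg/day. PPARA, the gene of the receptor itself, had -0.41 ± 0.20 at 400 mg/kg/day against vehicle (limma adjusted p = 0.408). It fell by 0.91 ± 0.19 at 400 against 3 mg/kg/day (limma adjusted p = 0.00499), where 2.26% of all probe sets fell. PPARA did not run in dose order. Its mean intensity was 618 in 15-day vehicle, 884 at 3 mg/kg/day, 531 at 30, 857 at 150 and 461 at 400. NFYA, a subunit of the CCAAT-binding factor NF-Y, fell at 400 mg/kg/day by 1.77 ± 0.42 (limma adjusted p = 0.0239). Its treated livers were dim, at 7.3 to 51.3 against 105.2 to 160.1 in vehicle. The call was lost without 3 of the 7 animals in turn (limma adjusted p up to 0.0979) and with only the groups compared.

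Genes that activate fatty acids or place them in lipids were measured for 16 of 34, and none passed in any comparison with vehicle. Against 3 mg/kg/day, LPCAT3, which puts polyunsaturated chains into phospholipids, rose by 1.09 ± 0.28 at 400 mg/kg/day (limma adjusted p = 0.0243). In the same contrast DGAT1, which completes triglyceride, fell by 1.39 ± 0.39 (limma adjusted p = 0.043). Its mean intensity was 334 in 15-day vehicle, 688 at 3 mg/kg/day and 240 at 400. Leaving out single animals ended the LPCAT3 call in 5 of 8 cases and the DGAT1 call in 7 of 8, with adjusted p of up to 0.0922 and 0.124. Both calls were also lost with no intensity trend, and that of DGAT1 with no filter and with median scaling.

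Enzymes that oxidize unsaturated fatty acids or shorten long chains in peroxisomes were measured for 11 of 20, and their median at 400 mg/kg/day was 0.56. At 15 days 3 of them rose at that dose, where 1.26% of all tested probe sets rose: ECH1, which shifts double bonds, by 1.01 ± 0.22 (limma adjusted p = 0.0129), HSD17B4, the peroxisomal bifunctional enzyme, by 0.90 ± 0.23 (0.0339), and DECR1, which reduces double bonds in mitochondria, by 0.89 ± 0.23 (0.0422). Leaving out single animals ended the ECH1 call in 3 of 7 cases, HSD17B4 in 4 and DECR1 in all 7, with adjusted p of up to 0.217. The HSD17B4 and DECR1 calls were also lost with no filter and with no intensity trend. With only the groups compared, the ECH1 and HSD17B4 calls were lost. ACAA1, the peroxisomal thiolase, rose at 150 mg/kg/day by 1.03 ± 0.17 (limma adjusted p = 0.00394), where 0.531% of all tested probe sets rose, and the call held without each animal in turn. Neither ACAA1 nor DECR1 ran in dose order. ACAA1 had a mean intensity of 923 ± 42.5 (SD, n = 3) in 15-day vehicle, 1664 ± 271 (n = 4) at 3 mg/kg/day, 1446 ± 344 at 30, 1922 ± 315 at 150 and 1354 ± 75.2 at 400. DECR1 had 719 ± 68.2 (SD, n = 3) in vehicle, 1239 ± 360 (n = 4) at 3 mg/kg/day, 1419 ± 151 at 30, 1346 ± 418 at 150 and 1349 ± 196 at 400. ECH1 was the only pathway gene of the 62 measured that rose at 4 days, where 0.252% of all tested probe sets did, by 1.55 ± 0.29 (limma adjusted p = 0.0177), a call lost without any 1 of the 4 animals (up to 0.191). None of the 62 was called at 3 or 30 mg/kg/day by limma, where 757 and 740 of all 7535 probe sets had an unadjusted p under 0.05.

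**Figure D5:**
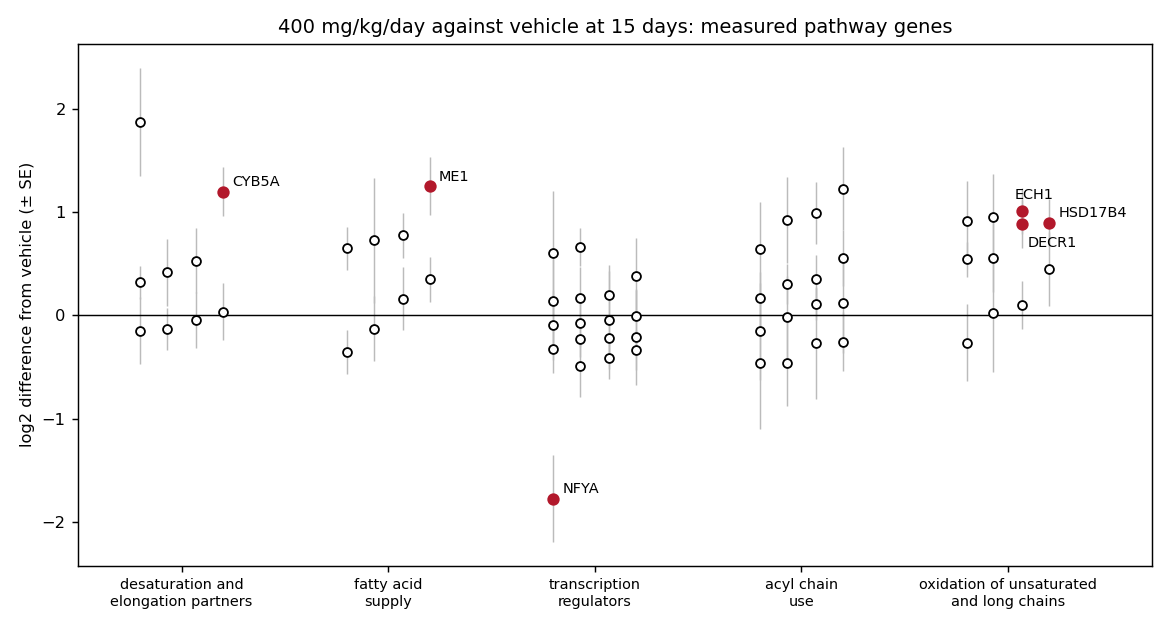
Difference between 400 mg/kg/day and vehicle at 15 days for the 62 measured genes of the 5 pathway lists, on the log2(intensity + 16) scale with the SE of the fit as bars; filled points passed an adjusted p of 0.05 by limma. The 6 that passed run from NFYA at -1.77 to ME1 at 1.25.

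The genes whose levels over all 23 arrays ran most like those of each member were ranked by Pearson r among 5461 others, as a description that mixes dose, day and animal. For FADS2 they were NQO1 (0.88), SCD (0.86), LITAF (0.84), FABP1 (0.84) and ELOVL5 (0.83). For SCD they were ELOVL5 (0.87), FADS2 (0.86), NQO1 (0.81), CSTB (0.81) and CYP3A4 (0.80), and for ELOVL5 they were SCD (0.87), ALDH1A1 (0.84), CHUK (0.84), FADS2 (0.83) and CYP3A4 (0.79). Each of the 3 members was among the 5 nearest of both others. The genes were chosen on their group levels in these same arrays, so this nearness is no separate evidence that they run together. After group means were removed, FADS2 had r of 0.34 with NQO1, 0.51 with SCD, 0.43 with LITAF, 0.17 with FABP1 and 0.51 with ELOVL5. Within groups SCD and ELOVL5 ranked only 161 and 155 among the 5461 genes for likeness to FADS2.

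Whole liver was measured, so fewer cells of a type and less RNA per cell cannot be told apart. Beside the member differences at 400 mg/kg/day at 15 days, the summed intensity of the 9 hepatocyte markers was 69914.9 to 86246.8, against 94574.0 to 104224.4 in vehicle, where CYP2E1 fell by 3.56 and CYP3A4 rose by 1.31. The sum was also lower for Kupffer cell markers (8 of 9 measured), at 2593.6 to 3491.9 against 3976.1 to 5402.7. For sinusoidal endothelial markers (5 of 9 measured) it was 1231.6 to 1630.7 against 2000.5 to 2161.7. For stellate cell markers (6 of 9 measured) it was 387.4 to 592.1 against 619.0 to 856.3. TIMP1 was the only gene of these Kupffer, endothelial and stellate cell markers called lower. A sum follows its brightest markers, and single markers differed in direction. Among hepatocyte markers TTR had 0.20 and APOA1 -0.42, with a median of -0.20 over the 9. Among Kupffer cell markers FCGR3A had 0.29 and MARCO -1.33, with a median of -0.365 over the 8. For adipocytes, a cell type rich in SCD, 2 of 5 markers were measured, PLIN1 and LPL, with sums of 372.1 to 498.8 against 186.7 to 367.2 and neither called. The part of these shifts in the levels of FADS2, SCD and ELOVL5 was not tested. The control genes ACTB and GAPDH had 0.52 ± 0.21 and 0.00 ± 0.21 at that dose, neither called.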

How the data were processed

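Liver RNA from 23 animals was hybridised to 1 array each. The deposited values are probe set intensity on a linear scale, computed by the authors with MAS5, per the submitters' processing notes; its version and settings are not given in the sources used here. Each array's mean, trimmed by 2% at each end, was 150.1, so arrays had been scaled. The number of arrays limits the precision. Probe sets were named from the platform annotation: of these 12625, 10961 had 1 gene, 545 several and 1119 none.

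Intensities were transformed to log2(intensity + 16). After removal of 67 control probe sets, 7535 with a mean at or above the 40th percentile (intensity 39.7) were fitted with limma 3.58.1 in R 4.3.3, as a means model of 7 groups with an intensity trend, with Benjamini-Hochberg adjustment across all 7535. A call is an adjusted p under 0.05. FADS2 passes the intensity limit through its high-dose groups. Probe sets 39372_at and 41719_i_at pass it through their 400 mg/kg/day groups.

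The members and gene lists were chosen with earlier results of these data known. A gene was represented by its brightest tested probe set naming it alone. Named were all measured desaturation and elongation genes, members of other lists called against vehicle, PPARA, SREBF1, the 5 nearest genes per member, ACTB and GAPDH; LPCAT3 and DGAT1 were added after their values were seen. Within-group correlations used 100000 permutations within groups.

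Replicates are separate animals per the labels. Animals sharing a replicate number did not deviate together (58 pairs, correlations from -0.0873 to 0.0719), so the model has no block. Alternatives changed the constant, filter, scaling, variance model, arrays used and block, and left out each animal. The fit was tested on simulated data. Sequences and detection calls were not used here.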

Additional observations from a re-analysis of the deposited data

Results flagged for a closer look

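In groups of 4 animals, the highest or lowest value was set against the rest by Dixon's ratio, the gap to the nearest animal divided by the group's range, and its 95% critical value. Of 40 groups checked over the 10 probe sets of FADS2, SCD, ELOVL5 and FADS1 with MIR1908, 4 passed it, where chance gives about 1 in 20.

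FADS2 in animal 4 on 400 mg/kg/day at 15 days was low, at 647.0 against 1052.4 to 1112.2 (ratio 0.898), and still above every vehicle animal. SCD in animal 1 on 150 mg/kg/day was high, at 918.6 against 173.0 to 210.6 (ratio 0.886). Probe set 41718_g_at was high in animal 3 on 3 mg/kg/day, at 439.1 against 299.3 to 308.7 (ratio 0.92), the animal that was also highest there for FADS2 (25.8) and SCD (66.6). Probe set 41719_i_at was high in animal 2 on 150 mg/kg/day, at 99.8 against 54.9 to 56.5 (ratio 0.955).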

How the results depend on the processing

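The differences of FADS2, SCD and ELOVL5 (33821_at) from vehicle kept their direction under every alternative constant, filter, scaling, variance model, array weighting and block that gave a value; the filter left FADS2 without a value at 3 mg/kg/day when those groups alone were fitted. The ELOVL5 probe set 35117_at gave 0.033 at 3 mg/kg/day, 0.30 at 400 mg/kg/day and -0.69 at 4 days. Leaving out single animals moved the 4-day differences to between 2.63 and 4.97 for FADS2, 2.18 and 3.63 for SCD and 0.39 and 1.28 for ELOVL5, and turned SCD at 30 mg/kg/day as low as -0.11, from 0.43. Without animal 2 of the 4-day vehicle group, the 15-day minus 4-day difference of FADS2 turned to -0.74 and the vehicle differences between days to 0.20 for FADS2 and 0.27 for ELOVL5; the other ends of these ranges were 1.60, -2.13 and -0.62. The SCD time difference ranged from -0.52 to 0.93 and its vehicle difference from -0.26 to 1.19. Without 1 animal the within-group r ranged from 0.40 to 0.58 for FADS2 with ELOVL5 and from 0.37 to 0.70 for SCD with ELOVL5. Both pairs passed only without animal 2 of the 15-day vehicle group, at 0.55 (permutation, adjusted p = 0.0478) and 0.70 (permutation, adjusted p = 0.00966).

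Pathway genes called at 150 mg/kg/day, 2 in the main setting, were 1 with no trend, 1 with only the groups compared and 1 to 4 without 1 animal. At 400 mg/kg/day the 6 became 11 with array weights and 1 to 5 without 1 animal. At 4 days the 1 became 0 with no trend, 0 with only the groups compared, 5 with array weights and 0 without any 1 animal. Over all probe sets, the 51 called at 150 mg/kg/day ranged from 27 to 75 over the other settings and from 13 to 45 without 1 animal, the 161 at 400 from 110 to 252 and from 93 to 136, and the 22 at 4 days from 1 to 113 and from 2 to 4. The 0 called at 3 mg/kg/day became at most 4, and the 1 at 30 mg/kg/day at most 5.

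With the replicate number as a block, pathway genes called at 150 mg/kg/day were 1 (CYB5A was lost, at 1.10), the 41718_g_at call there was lost (2.39), probe sets called were 30 at 150 and 4 at 30 mg/kg/day, and no other call of a pathway gene or probe set named above was lost. The causes of these changes were not tested. Groups of 2 to 4 animals limit what can be seen, most of all at 4 days, and signals near the tested limit, such as FADS2 in vehicle, are the least precise.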
